A study of Mus musculus with 22 samples.

Results

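NFAT1 binding was compared between IkE5 and wild-type (WT) regulatory T cells (Treg cells) from the peak lists of 4 chromatin immunoprecipitation sequencing (ChIP-seq) libraries, 2 per genotype. Peaks of the 4 libraries that overlapped by at least 1 bp were merged, which gave 11087 NFAT1 regions out of 73991 regions when the peaks of every target in the series were merged. Each region was classed by the libraries that held a peak in it. "WT only" below means a peak in both WT libraries and in neither IkE5 library, and "IkE5 only" means the reverse. All cells were primary mouse Treg cells of spleen and lymph node origin, stimulated for 1 h with a commercial Cell Stimulation Cocktail. They were fixed with 1% formaldehyde for 30 min, or for 5 min for the libraries of the histone acetylation H3K27ac, in both genotypes alike. IkE5 cells carry what the labels call an IkE5-deletion, a name the labels do not expand. The title of the series names Ikzf1, the gene of the transcription factor Ikaros, and how much Ikaros these cells retain is not given. The mice's age and strain, and the driver of the deletion, are not given in the sources used here. Of the 22 samples of the series 18 had a peak list, and the 4 inputs are not analysed here. The labels do not say whether the 2 libraries of a genotype are from different animals, so every p-value measures the spread between these libraries, which can be technical alone.

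NFAT1, encoded by Nfatc2, is a transcription factor held in the cytoplasm of resting T cells by phosphorylation. Calcium entry after T cell receptor engagement activates the phosphatase calcineurin, which strips these phosphates and lets NFAT1 enter the nucleus. There it binds a GGAAA core, often beside the AP-1 dimers of Fos and Jun at cytokine genes, whereas in Treg cells it can pair with Foxp3, the factor that defines the lineage. Ikaros is a zinc finger protein that binds a GGGAA core and recruits chromatin-modifying complexes.

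The sequences below are promoters that lay wholly inside an NFAT1 region, and they are shown because their classes span the results that follow. Each is the 250 bases before the start site, from RefSeq (GRCm38.p6, the assembly of mm10), read 5′ to 3′ on the strand of the gene. Capitals mark the NFAT core GGAAA, the Ikaros core GGGAA and the AP-1 motif TGANTCA, each searched on both strands, so that a run read as TTTCC is an NFAT core on the opposite strand. The first 2 cores overlap where a promoter holds GGGAAA, which counts for both. Il4 (chr11:53618666-53618915, minus strand) lay in an IkE5 only region. Batf (chr12:85686470-85686719, plus strand) and Runx1 (chr16:92826075-92826324, minus strand) lay in WT only regions. Il2 (chr3:37125955-37126204, minus strand) and Rcan1 (chr16:92400079-92400328, minus strand) lay in regions held by 1 WT and both IkE5 libraries, and Tnfsf14 (chr17:57194182-57194431, minus strand) in a region of all 4.
Il4: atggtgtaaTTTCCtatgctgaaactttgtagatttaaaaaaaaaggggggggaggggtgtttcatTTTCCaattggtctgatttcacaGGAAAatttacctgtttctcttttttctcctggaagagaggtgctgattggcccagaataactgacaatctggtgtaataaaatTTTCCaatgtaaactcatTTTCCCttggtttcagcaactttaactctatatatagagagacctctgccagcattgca
Batf: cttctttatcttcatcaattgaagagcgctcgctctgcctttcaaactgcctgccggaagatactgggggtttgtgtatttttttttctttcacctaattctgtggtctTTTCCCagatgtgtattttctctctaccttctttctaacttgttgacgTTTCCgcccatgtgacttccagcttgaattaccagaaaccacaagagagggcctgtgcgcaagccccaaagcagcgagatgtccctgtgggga
Runx1: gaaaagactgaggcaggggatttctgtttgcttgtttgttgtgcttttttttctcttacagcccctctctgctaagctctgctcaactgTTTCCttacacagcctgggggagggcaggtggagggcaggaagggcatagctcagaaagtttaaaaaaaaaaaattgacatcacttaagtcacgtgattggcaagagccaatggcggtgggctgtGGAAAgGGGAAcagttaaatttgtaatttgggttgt
Il2: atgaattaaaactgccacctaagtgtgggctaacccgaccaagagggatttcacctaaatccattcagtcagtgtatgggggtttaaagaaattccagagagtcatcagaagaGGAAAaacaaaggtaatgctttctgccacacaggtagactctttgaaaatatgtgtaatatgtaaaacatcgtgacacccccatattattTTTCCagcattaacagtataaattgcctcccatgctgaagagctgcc
Rcan1: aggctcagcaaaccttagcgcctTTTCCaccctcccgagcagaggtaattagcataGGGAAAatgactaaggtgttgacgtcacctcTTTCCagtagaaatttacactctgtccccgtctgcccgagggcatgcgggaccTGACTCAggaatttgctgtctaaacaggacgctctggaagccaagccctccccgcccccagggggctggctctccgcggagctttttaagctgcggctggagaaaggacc
Tnfsf14: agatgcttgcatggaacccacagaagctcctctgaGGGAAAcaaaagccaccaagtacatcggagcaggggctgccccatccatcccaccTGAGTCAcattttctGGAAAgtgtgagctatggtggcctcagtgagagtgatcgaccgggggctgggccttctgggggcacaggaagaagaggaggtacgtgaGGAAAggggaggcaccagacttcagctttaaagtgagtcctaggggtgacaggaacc

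The Il4 promoter, at the gene of the T helper 2 cytokine interleukin 4, held 5 GGAAA cores, 1 GGGAA core and no AP-1 match. Batf and Runx1 each held 2 GGAAA and 1 GGGAA, with no AP-1 match. Rcan1 and Tnfsf14 each held 3 GGAAA, 1 GGGAA and 1 AP-1 match. Il2 held 2 GGAAA and no match to either other motif. These letters are common. Over all 32817 promoters of the table, taken with 50 bases after the start (300 bp in all), 61.3% held GGAAA, 62.7% GGGAA and 7.81% TGANTCA.

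Among promoters overlapped by an NFAT1 region, GGAAA was at 74.7% of 269 promoters in all-4 regions, 73.1% of 609 in WT only regions and 76.0% of 25 in IkE5 only regions, all above the share over the table. The AP-1 motif was at 11.9% of all-4, 3.12% of WT only (19 promoters) and 24.0% of IkE5 only promoters (6 promoters). GGGAA was at 67.7%, 66.3% and 60.0%. Median GC content was 57.7%, 60.0% and 53.3% in the same order, against 52.7% over the table, and its part in the motif shares was not tested. Alternative promoters of a gene can overlap and count more than once, and a match is a description of the letters and not a site.

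NFAT1 had fewer called peaks in both IkE5 libraries than in either WT library. WT libraries 1 and 2 had 7825 and 6850 peaks (7338 ± 689, SD, n = 2), and IkE5 libraries 1 and 2 had 4908 and 3435 (4172 ± 1042, SD, n = 2), which is 56.9% of the WT mean. The groups did not overlap (2-sided exact permutation p = 0.333, the smallest that 2 libraries against 2 can give). Within libraries of the same number the IkE5 list had 62.7% and 50.1% of the WT peaks. The IkE5 lists of p300 held 102%, those of Foxp3 105% and those of H3K27ac, a histone acetylation described below, 96.4% of their WT means (90.5% and 105% within numbers 1 and 2), and for each of these the genotypes overlapped. A list gives no reads, so depth is unknown, and fewer called peaks through lower depth or enrichment cannot be told apart from weaker binding.

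**Figure D1:**
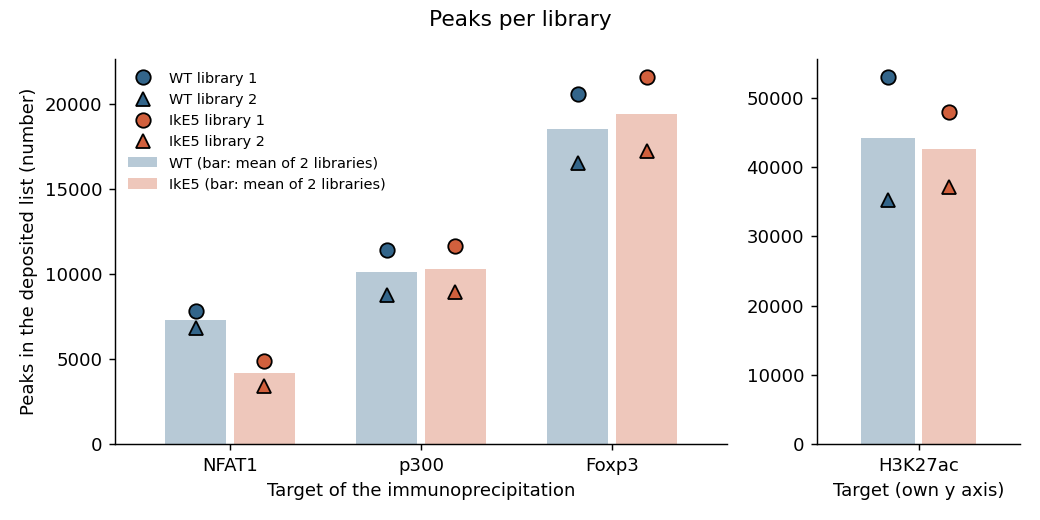
Number of peaks in each deposited list (y axis) for NFAT1, p300 and Foxp3 (x axis, left) and for H3K27ac (right, with its own y axis); circles are libraries numbered 1, triangles those numbered 2, and bars the mean of 2 libraries. Both NFAT1 lists of IkE5 (4908 and 3435) lie under both WT lists (7825 and 6850), while the p300, Foxp3 and H3K27ac lists of the genotypes overlap.

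The 2 genotypes shared a core of sites. All 4 libraries held a peak in 1939 regions (17.5% of the regions), both WT libraries and 1 IkE5 library in 1210, and 1 WT library and both IkE5 libraries in 298. WT only regions numbered 2152, or 19.4% of all regions. IkE5 only regions numbered 412, or 3.72% of all regions, so that there were 5.22 WT only regions for each IkE5 only region. A peak in a single WT library was found in 3244 regions and in a single IkE5 library in 1303. Of the 2649 regions with both IkE5 libraries, 15.6% were IkE5 only, whereas of the 5301 with both WT libraries 40.6% were WT only.

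**Figure D2:**
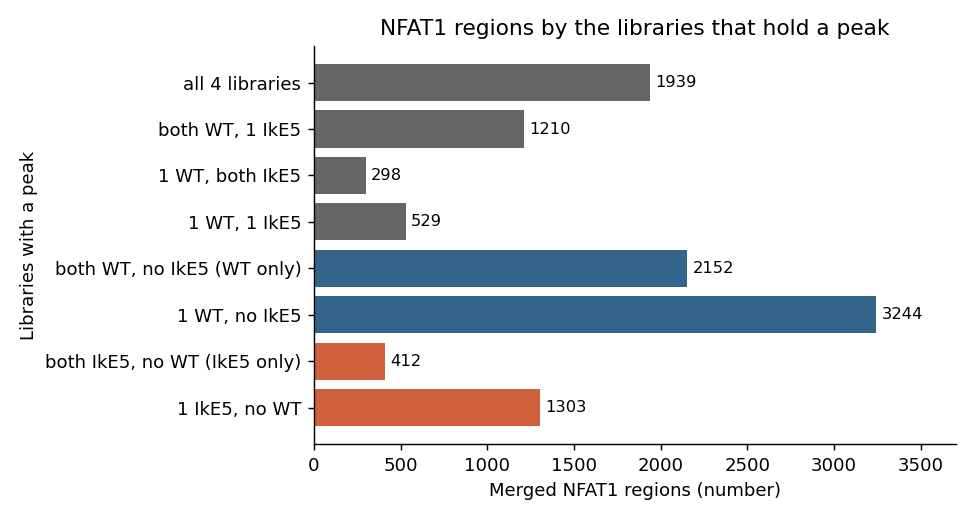
Number of merged NFAT1 regions (x axis) by the libraries that hold a peak (y axis); grey bars have a peak in both genotypes, blue in WT alone and orange in IkE5 alone. The WT only class (2152) exceeds the all-4 class (1939) and the IkE5 only class (412).

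Most peaks of the IkE5 lists were at WT sites. Of the peaks of IkE5 library 1, 68.6% overlapped a peak of WT library 1 and 65.7% one of WT library 2. For IkE5 library 2 the shares were 67.5% and 69.1%. The 2 WT lists overlapped each other at 67.8% of the first and 77.4% of the second, and the 2 IkE5 lists at 54.0% and 77.1%. Peak centres in all-4 regions lay a median of 26 to 40.5 bp apart between lists. The classes depend on each library. Leaving out WT library 1 or 2 gave 3342 or 4206 WT only regions, and leaving out IkE5 library 1 or 2 gave 869 or 1258 IkE5 only regions, as a class then needs a peak in 1 library instead of 2.

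The classes lay at different distances from start sites. Among regions whose nearest gene has a start site in the promoter table, 38.5% of WT only, 27.2% of all-4 and 14.9% of IkE5 only regions lay within 2 kb of one. The share was 41.9% for regions of a single WT library and 18.1% for those of a single IkE5 library. The median distance was 6.92 kb for WT only, 11.7 kb for all-4 and 14.6 kb for IkE5 only regions. Over the peaks of each library the share within 2 kb was 29.9% and 29.5% in WT against 22.0% and 20.4% in IkE5, with no overlap between genotypes (difference -8.54 percentage points, 2-sided exact permutation p = 0.333, the smallest possible). Of the WT only regions 64.6% fell inside a protein-coding gene, as did 49.0% of the IkE5 only regions.

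p300, a histone acetyltransferase that marks active enhancers and promoters, was measured in separate libraries and took no part in the classes. At WT only NFAT1 regions a p300 peak was present at 86.0% and 66.2% in WT and at 56.0% and 48.0% in IkE5. The means were 76.1% ± 14.0 and 52.0% ± 5.62 (SD, n = 2 each), a difference of -24.0 percentage points without overlap (2-sided exact permutation p = 0.333, the smallest possible). Without WT library 1 the difference was -14.1 points. At IkE5 only regions p300 was present at 31.3% and 21.8% in WT and at 73.1% and 76.9% in IkE5, with means of 26.6% ± 6.69 and 75.0% ± 2.75 (SD, n = 2 each). The difference was 48.4 points, again without overlap (2-sided exact permutation p = 0.333). At the 1939 all-4 regions p300 was present at 97.1% and 91.2% in WT and 92.6% and 94.0% in IkE5, where the genotypes overlapped (2-sided exact permutation p = 1). Whether NFAT1 and p300 libraries of a number came from the same chromatin is not given, and the part of a shared preparation was not tested.

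Foxp3 and H3K27ac, the acetylation of histone H3 at lysine 27 that marks active regulatory DNA, gave smaller or overlapping differences. Foxp3 was at 89.7% and 64.6% of WT only regions in WT and at 74.0% and 63.2% in IkE5. At IkE5 only regions it was at 52.2% and 11.7% in WT and 86.4% and 30.6% in IkE5. In both classes the genotypes overlapped (2-sided exact permutation p = 0.667 each), and within each genotype the library numbered 2 held fewer of these sites. Within numbers 1 and 2 the Foxp3 differences, IkE5 minus WT, were -15.7 and -1.49 points at WT only regions, and 34.2 and 18.9 points at IkE5 only regions (exact sign-flip permutation p = 0.5 each, the smallest possible). Without WT library 1 the first class gave 3.95 points, and without IkE5 library 1 the second gave -1.33 points. With shares divided by the relative number of peaks of each library, the first class gave -11.2 points without overlap (2-sided exact permutation p = 0.333). The second then gave 24.05 points with overlap (2-sided exact permutation p = 0.667). H3K27ac was at 94.4% and 89.8% of WT only regions in WT and 87.5% and 87.7% in IkE5, a difference of -4.51 points without overlap (2-sided exact permutation p = 0.333). Without WT library 1 it was -2.23 points, and with each share divided by the relative number of peaks of its library it was -3.09 points with overlap (2-sided exact permutation p = 1). At IkE5 only regions it was at 79.6% and 48.5% in WT and at 93.4% and 77.7% in IkE5, where the genotypes overlapped (difference 21.5 points, 2-sided exact permutation p = 0.667). Without WT library 2 that difference was 5.95 points, without WT library 1 it was 37.0, and without IkE5 library 1 it was 13.6. It was without overlap when 250 bp of overlap were needed (24.2 points) or shares were divided by the relative number of peaks (25.2 points, 2-sided exact permutation p = 0.333 each). H3K27ac peaks reached 80869 bp in width, so an H3K27ac overlap can mark a neighbouring site.

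**Figure D3:**
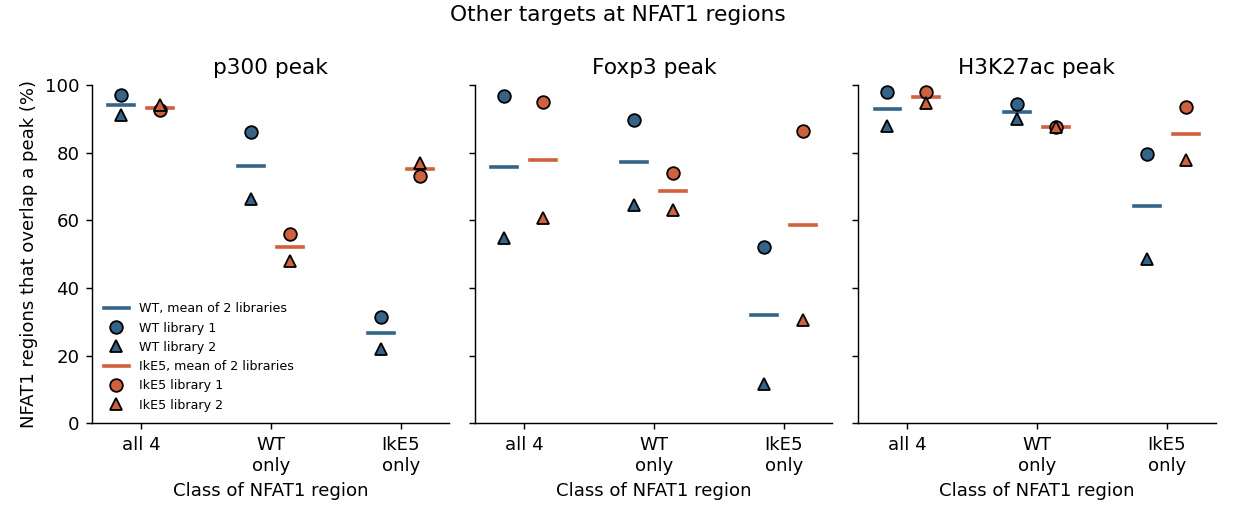
Percent of NFAT1 regions (y axis) in 3 classes (x axis) that overlap a p300, Foxp3 or H3K27ac peak; circles are libraries numbered 1, triangles those numbered 2 and lines the mean of 2 libraries. For p300 the IkE5 libraries lie under the WT libraries at WT only regions (56.0% and 48.0% against 86.0% and 66.2%) and over them at IkE5 only regions (73.1% and 76.9% against 31.3% and 21.8%).

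Classes of the same direction coincided most often for p300, which also had the highest shares over all NFAT1 regions. Of the 2152 WT only NFAT1 regions, 250 (11.6%) overlapped a p300 region that was itself WT only, beside 5.49% of all NFAT1 regions, and 20 overlapped a p300 IkE5 only region. Of the 412 IkE5 only NFAT1 regions, 134 (32.5%) overlapped an IkE5 only p300 region, beside 4.53% of all NFAT1 regions, and 2 a WT only one. As a share of the p300 classes these were 23.9% of 1045 and 12.0% of 1115 regions. For Foxp3 the same-direction overlaps were 61 of WT only (2.83%, background 1.57%) and 28 of IkE5 only regions (6.80%, background 1.48%). For H3K27ac they were 58 (2.70%, background 1.26%) and 33 (8.01%, background 1.38%).

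At 2 WT only sites and 7 IkE5 only sites all of p300, Foxp3 and H3K27ac had the class of NFAT1. The 2 WT only sites were chr11:14142404-14142926 and chr12:99666019-99666550, the latter 25.6 kb below Efcab11, and both had an Ikaros peak in both Ikaros libraries. None of the 7 IkE5 only sites had an Ikaros peak in either library. Ikaros was mapped in WT cells only, and both groups of sites were chosen by peaks in the WT lists. This contrast in Ikaros is therefore not independent of the choice of sites. One of the 7 lay 4.3 kb above the higher-coordinate end of Il3 (chr11:54271580-54272171), the gene of interleukin 3, a growth factor of blood cell progenitors. Another lay inside Vdr (chr15:97892429-97892997), which encodes the vitamin D receptor. Others lay inside Aplp2 (chr9:31204696-31205230) and Cep112 (chr11:108584771-108585361) and 24.6 kb below Lpgat1 (chr1:191692388-191692981). At each of these sites all 8 IkE5 lists of the 4 targets held a peak and no WT list did.

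Ikaros was mapped in WT cells only, in 2 libraries. Its peaks were at 96.6% and 71.4% of all-4 NFAT1 regions, at 90.7% and 78.9% of WT only regions, and at 55.8% and 26.9% of IkE5 only regions. In each Ikaros library the IkE5 only regions had the lowest share of these 3 classes. They hold no WT NFAT1 peak by definition, so this share from WT cells is not independent of the class. NFAT1 absence from IkE5 did not change in 1 direction with Ikaros. Of the 5301 regions with NFAT1 in both WT libraries, the share with no NFAT1 peak in either IkE5 library was 54.2% where neither Ikaros library had a peak (264 regions, exact 95% binomial interval 47.9% to 60.3%), 31.9% where 1 had (1160 regions, 29.2% to 34.7%) and 42.3% where both had (3877 regions, 40.7% to 43.8%). These intervals cover counting error only. The middle group was uneven, at 28.9% of 1080 regions with Ikaros library 1 alone and 72.5% of 80 regions with library 2 alone.

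The share of WT NFAT1 regions without an IkE5 peak was lowest where p300 was present in every library. With a p300 peak in 0, 1, 2, 3 or 4 of the p300 libraries, it was 77.7%, 74.0%, 68.8%, 55.7% and 21.8%. The last group held 2982 regions (interval 20.3% to 23.3%). Counting the 2 WT p300 libraries alone, the shares were 70.3%, 57.9% and 34.0% for 0, 1 and 2 libraries. Among regions with p300 in all 4 libraries, NFAT1 was absent from IkE5 at 25.1% of 2438 regions with Ikaros in both libraries (23.4% to 26.9%), at 6.62% of 529 with Ikaros in 1 (4.65% to 9.08%) and at 13.3% of 15 with none (1.66% to 40.5%). p300 was present in all 4 libraries at 84.4% of all-4, 30.2% of WT only and 12.1% of IkE5 only NFAT1 regions. The lists give no peak height, so weak and strong peaks count alike in these shares.

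**Figure D4:**
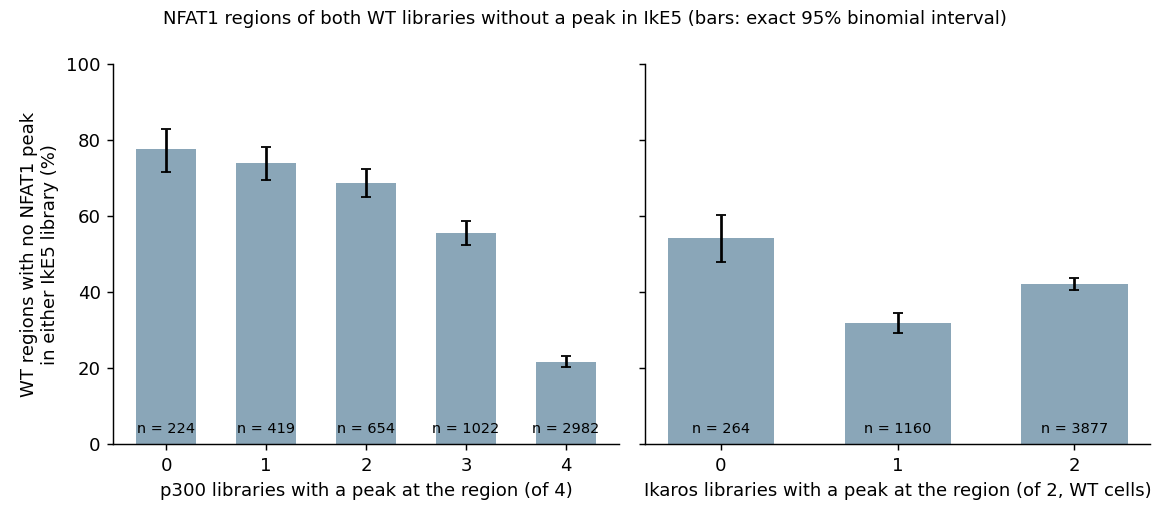
Percent of NFAT1 regions of both WT libraries that have no NFAT1 peak in either IkE5 library (y axis), by the number of p300 libraries (left) or Ikaros libraries (right) with a peak at the region (x axis); error bars are exact 95% binomial intervals and n is the number of regions. The share is 77.7% with no p300 library and 21.8% with all 4, and 54.2%, 31.9% and 42.3% with 0, 1 and 2 Ikaros libraries.

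Regions were assigned to a protein-coding gene when they fell in it or within 10 kb. In all 6423 genes had an NFAT1 region. A WT only region was found at 31.1% of them, an IkE5 only region at 4.61% and an all-4 region at 21.4%. The genes with an NFAT1 peak numbered 5074 in WT 1, 4676 in WT 2, 2978 in IkE5 1 and 2127 in IkE5 2. Over the 8334 regions near genes, 20.0% were WT only and 3.16% IkE5 only. The cells had NFAT1 peaks at each of 8 genes listed as Treg cell markers (Foxp3, Il2ra, Ctla4, Ikzf2, Tnfrsf18, Tnfrsf4, Cd4 and Cd3e) in every library. Not all of these are particular to Treg cells, as Cd4 and Cd3e are shared with other T cells. Of 13 B cell markers 3, 3, 1 and 0 had a peak in WT 1, WT 2, IkE5 1 and IkE5 2, of 12 CD8 T and natural killer cell markers 2, 0, 1 and 0, and of 14 myeloid markers 0, 1, 2 and 2. A peak at a gene is not its expression, and the part of other cells in the results was not tested.

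Effector cytokine genes were not fewer in the IkE5 lists than in the WT lists. Of the 20 genes listed, 12 had a region. A peak lay at 9 and 9 of them in WT libraries 1 and 2, and at 11 and 10 in IkE5 libraries 1 and 2. Over their 23 regions none was WT only and 13.0% were IkE5 only, beside 20.0% and 3.16% near any gene. None of the genes had a WT only region (background 31.1% of genes) and 3 had an IkE5 only region (background 4.61%). These were Il3, at the site above, Il4 and Tnfsf14, the gene of the tumour necrosis factor (TNF) family ligand LIGHT. At Il4 the region chr11:53618547-53619174 covered the start site. It had H3K27ac in both IkE5 and neither WT library, a Foxp3 peak in IkE5 library 1 alone, and no p300 or Ikaros peak in any library. Unlike at the Il3 site, however, no merged H3K27ac region that was itself IkE5 only overlapped it. At Tnfsf14 the IkE5 only site lay 6.22 kb below the gene (chr17:57182733-57183256) with p300 in both IkE5 libraries alone, beside 2 all-4 regions, 1 of them at the promoter printed above. With a window of 2 kb around the gene in place of 10 kb, 1 gene of the list had an IkE5 only region.

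Il2 encodes interleukin 2, the growth factor of activated T cells, and is known to be repressed by Foxp3 in Treg cells. It had 1 region, at its promoter (chr3:37125877-37126456). NFAT1 was present there in WT library 2 and in both IkE5 libraries, p300 in all 4, and Ikaros in both of its libraries. H3K27ac was present in IkE5 library 1 alone. Ifng, the gene of interferon gamma, had an all-4 region inside the gene (chr10:118442828-118443364) and a second 5.49 kb below it in IkE5 library 2 alone (chr10:118435056-118435555). At that second site p300 and H3K27ac were present in both IkE5 libraries and in neither WT library.

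Genes of the calcium and NFAT pathway, which runs from calcium release through calcineurin to NFAT and its inhibitors, had peaks in all libraries. Of 30 genes 22 had a region, and 20, 19, 19 and 16 had a peak in WT 1, WT 2, IkE5 1 and IkE5 2. A WT only region lay at 7 of them (31.8%, background 31.1%) and an IkE5 only region at 4 (18.2%, background 4.61%). Over their 70 regions 10.0% were WT only and 5.71% IkE5 only, beside 20.0% and 3.16% of regions near any gene. WT only sites lay at Plcg1 (chr2:160741510-160742050), the phospholipase that starts the calcium signal, and at Dyrk1a (chr16:94617122-94617672), a kinase that phosphorylates NFAT. Plcg1 had 3 and 1 peaks in the WT lists and none in the IkE5 lists. IkE5 only sites lay at Nfatc1, the gene of NFAT2, at Nfat5 (chr8:107291122-107291639), a relative that does not need calcineurin, and near Rcan3, a regulator of calcineurin, where the site is closer to Nipal3. Itpr1, an intracellular calcium channel gene, had 1 region of each class among 10. Rcan1, the calcineurin inhibitor that NFAT itself induces, had an all-4 region (chr16:92443558-92444135) and the promoter region printed above, held by WT library 2 and both IkE5 libraries.

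T cell receptor signalling genes all had an NFAT1 region (29 of 29). The number with a peak was 28, 27, 27 and 23 in the order WT 1, WT 2, IkE5 1 and IkE5 2. A WT only region lay at 14 (48.3%, background 31.1% of genes) and an IkE5 only region at 3 (10.3%, background 4.61%). But over their 130 regions 16.2% were WT only and 3.08% IkE5 only, beside 20.0% and 3.16% of regions near any gene. These genes have many regions, a median of 3 each. Cblb, an E3 ubiquitin ligase that restrains T cell activation, had 3 WT only regions and 1 IkE5 only region among 13. Prkcq, the gene of protein kinase C theta, had 3 WT only among 11, with 10 and 9 peaks in WT lists against 8 and 2 in IkE5 lists. Fyn, Ptpn22 and Ubash3b had 2 WT only regions each. Ptprc, which encodes the phosphatase CD45, had 2 IkE5 only regions (chr1:138142348-138142875 and chr1:138177758-138178313), neither with a p300 peak in any library, and 1 WT only region. Zap70, the kinase of the receptor's zeta chain, had 1 IkE5 only region 0.944 kb below the gene (chr1:36760338-36760853).

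The Treg signature had peaks at 26, 25, 23 and 20 genes in the 4 libraries, of 26 with a region. WT only regions lay at 10 (38.5%, background 31.1%) and IkE5 only regions at 5 (19.2%, background 4.61%). Over their 97 regions 12.4% were WT only and 5.15% IkE5 only, beside 20.0% and 3.16% near any gene. Foxp3 itself had an all-4 region inside the gene (chrX:7583893-7584429) with p300, Foxp3, H3K27ac and Ikaros peaks in every library. Ctla4, the co-inhibitory receptor that Treg cells use, had an all-4 region 6.02 kb below the gene (chr1:60902414-60903004) and a promoter region (chr1:60908674-60909246) missing from IkE5 library 2. Il2ra, the alpha chain of the interleukin 2 receptor, had 9 regions and none in all 4. One was IkE5 only (chr2:11651409-11651912) and had no p300, Foxp3 or Ikaros peak. Ikzf4, the gene of the Ikaros relative Eos, had 2 WT only regions among 3. The region at chr10:128626468-128627012 lay below Ikzf4, overlapped the neighbouring gene Rps26 and was 0.233 kb from a start site. Ikzf2, the gene of Helios, had 15 regions of which none was WT only and 1 IkE5 only.

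Some genes held sites of both classes close together. At Runx1, whose product partners Foxp3, the WT only region over the printed promoter (chr16:92825977-92826564) adjoined an IkE5 only region on its lower-coordinate side (chr16:92825397-92825920). p300, Foxp3 and Ikaros peaks were in every library at the first. The second had p300 in IkE5 library 1, Foxp3 in both IkE5 libraries and no Ikaros peak. At Batf, an AP-1 family gene, the promoter region (chr12:85686326-85686865) was WT only with p300 and Foxp3 in every library, and an IkE5 only region (chr12:85687851-85688416) lay inside the gene. Of the 412 IkE5 only regions 16 (3.88%) had a WT only region within 2 kb and 42 (10.2%) within 10 kb. By distance between centres, 13.8% of the IkE5 only regions lay within 10 kb of an all-4 region. The share of all NFAT1 regions with a WT only region nearby was not computed, so special closeness of the 2 classes was not tested.

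Naive and quiescence genes, which keep T cells resting, included Foxp1, a long gene with many regions and the most WT only regions of all. Of 20 genes with a region 19, 17, 16 and 11 had a peak in the 4 libraries. A WT only region lay at 11 (55.0%, background 31.1%) and an IkE5 only region at 4 (20.0%, background 4.61%). Over their 120 regions, however, 15.8% were WT only and 3.33% IkE5 only, beside 20.0% and 3.16% near any gene. Foxp1, a forkhead repressor of T cell activation, had 31 regions along a gene of 597 kb. Its peaks numbered 27 and 22 in the WT lists, against 17 and 10 in the IkE5 lists. Of its 31 regions 8 were in all 4 libraries, 6 WT only and 1 IkE5 only. As shares of 31, the WT only and IkE5 only numbers are close to the 20.0% and 3.16% near any gene. At 2 of the 6 (chr6:99328145-99328709 and chr6:99350404-99350908) p300 and H3K27ac were also in both WT and neither IkE5 library. At the IkE5 only region (chr6:99188082-99188765) p300 was in both IkE5 libraries and neither WT library. Tcf7, the gene of the memory and stem-like factor TCF1, had 3 and 2 peaks in the WT lists and none in the IkE5 lists. S1pr1, the receptor for lymph node exit, had 1 region, IkE5 only (chr3:115708887-115709521), with p300 in both IkE5 libraries alone.

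**Figure D5:**
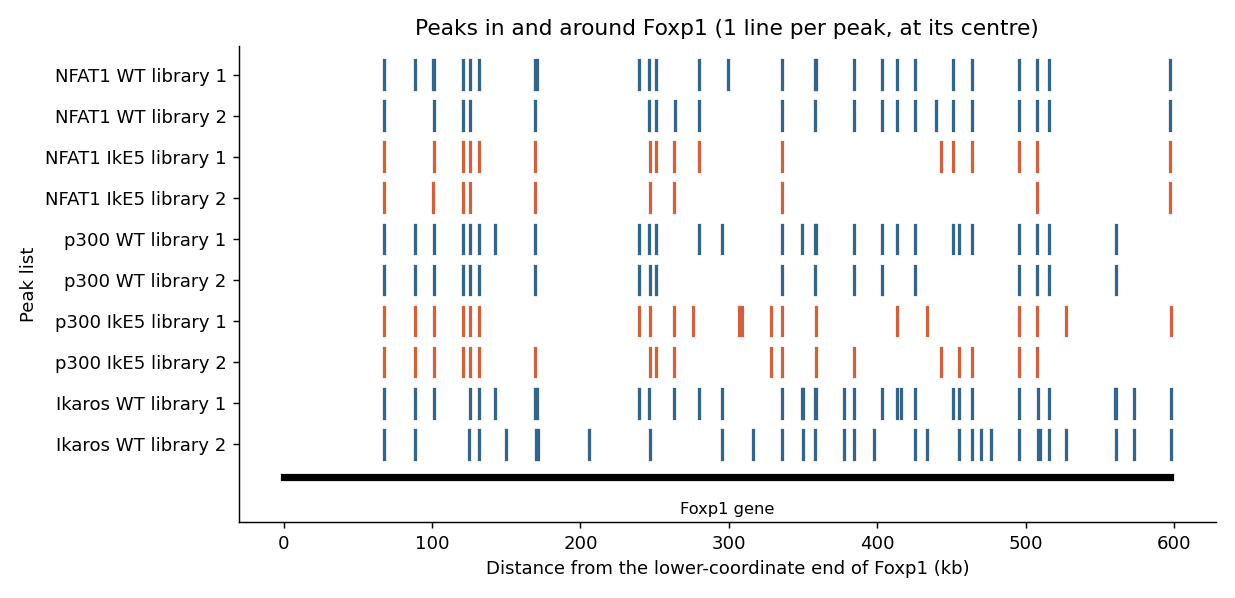
Peaks along Foxp1 and its flanks (x axis, distance from the lower-coordinate end of the gene in kb; black bar, the gene of 597 kb) in the NFAT1, p300 and Ikaros lists (y axis); each line is 1 peak, blue in WT and orange in IkE5. NFAT1 has 27 and 22 peaks in WT lists against 17 and 10 in IkE5 lists, and Ikaros has 34 and 31.

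Activation-induced genes, which T cells switch on within the first hours of stimulation, had all-4 regions at 21 of 31 genes (67.7%, background 21.4%). The number with a peak was 27, 26, 26 and 21. A WT only region lay at 8 (25.8%, background 31.1%) and an IkE5 only region at 1 (3.23%, background 4.61%). The latter was Nr4a1 (chr15:101256750-101257273), an immediate early nuclear receptor gene. Over the 75 regions of the list 10.7% were WT only and 1.33% IkE5 only, beside 20.0% and 3.16% near any gene. WT only regions lay at Cd69 (chr6:129267158-129267668), the early activation antigen, at Fos (chr12:85485788-85486381) and Junb (chr8:84976211-84976759), both AP-1 subunits, and at Irf4 (chr13:30761119-30761698) and Dusp5 (chr19:53519769-53520303). Junb had 1 and 3 peaks in the WT lists and none in the IkE5 lists.

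Co-inhibitory and exhaustion genes had peaks at 17, 17, 16 and 15 of 17 genes, with all-4 regions at 13 (76.5%, background 21.4%). WT only regions lay at 6 (35.3%, background 31.1%) and IkE5 only regions at 3 (17.6%, background 4.61%). Over their 68 regions 11.8% were WT only and 4.41% IkE5 only, beside 20.0% and 3.16% near any gene. All-4 regions made up 38.2% of the 68, beside 16.7% near any gene, and these genes had a median of 3 regions each. Pdcd1, the gene of the inhibitory receptor PD-1, had 3 all-4 regions and 1 IkE5 only region, with 3 peaks in each WT list and 4 in each IkE5 list. Tox, which encodes a nuclear factor that sustains T cell exhaustion, had 6 all-4, 3 WT only and 1 IkE5 only regions among 16. Its relative Tox2 had 1 and 2 peaks in the WT lists and none in the IkE5 lists.

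The Ikaros family and its corepressors had peaks at 14, 12, 8 and 7 of 16 genes, with WT only regions at 7 (43.8%, background 31.1%) and IkE5 only regions at 3 (18.8%, background 4.61%). Over their 57 regions 17.5% were WT only and 7.02% IkE5 only, beside 20.0% and 3.16% near any gene. Ikzf1 itself had 11 regions with 7 and 4 peaks in WT lists against 5 and 3 in IkE5 lists. Of these 2 were WT only (chr11:11678802-11679309 and chr11:11716466-11716974), 1 IkE5 only (chr11:11731669-11732272) and 1 in all 4 (chr11:11741567-11742083). Ctbp1 and Mta2, corepressor subunits, had 1 region each, and both were WT only, that of Mta2 spanning its lower-coordinate end and the end of the neighbouring gene Eml3 (chr19:8941517-8942129). Hdac1, the histone deacetylase of the complexes that Ikaros recruits, had no peak in WT and 2 in each IkE5 library (chr4:129507876-129508417 and chr4:129518480-129518980), with p300 in both IkE5 libraries alone at each. Both sites also lie within 10 kb of Marcksl1, so the files do not assign them to 1 gene.

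Partners of Foxp3 and NFAT had peaks at 19, 20, 18 and 12 of 21 genes, with WT only regions at 11 (52.4%, background 31.1%) and IkE5 only regions at 3 (14.3%, background 4.61%). Over their 81 regions 19.8% were WT only and 4.94% IkE5 only, beside 20.0% and 3.16% near any gene. Rora and Runx1 had 3 WT only regions each. Smad3, which carries transforming growth factor beta signals, had 2, and at chr9:63737450-63738019 both p300 and Foxp3 were also WT only. Crebbp, the gene of the p300 relative CBP, had 1 region, WT only, which overlapped the neighbouring gene Trap1 (chr16:4077605-4078152). Runx2 had 2 IkE5 only regions (chr17:44564489-44565041 and chr17:44608789-44609367), each with p300 in both IkE5 libraries alone.

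Over all genes, 37 had 3 or more WT only regions, and the highest number of IkE5 only regions at a gene was 2 (14 genes). After Foxp1 came Inpp4b, a phosphoinositide phosphatase gene, with 5 of 30 regions, and Rad51b, a DNA repair gene, with 5 of 21. Fam169b, Nedd9, Prkch and Trio had 4 each. These are long genes, up to 792 kb for Inpp4b, and most have many regions. At Fam169b and Trio 4 of 8 regions were WT only, with 7 peaks in each WT list against 2 and 1 in the IkE5 lists. One of those of Fam169b overlapped the end of the neighbouring gene Pgpep1l. Among the genes with 2 IkE5 only regions, Fam20a, a secretory pathway pseudokinase gene, had no WT peak (0 and 0 against 2 and 2). Adam19, Cab39, Chst11, Extl3, Hipk2, Klf13 and Parp8 also had peaks in WT libraries.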

How the data were processed

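The deposited lists hold the chromosome, start and end of each peak as the authors called it, for each library separately, with no header, score or p-value. Per the submitters' processing notes the build was mm10 and the tools HOMER, MACS2, Bowtie2, bedtools and FastQC. Their roles, the calling threshold and the input used are not given in the sources used here. Every NFAT1 peak was 500 bp wide, so width carries no signal. Regions, classes and overlaps (at least 1 bp) were computed with Python 3.11.15, pandas 2.3.3, NumPy 2.4.6 and SciPy 1.17.1, and the steps were tested on simulated lists. Genes came from the RefSeq table of GRCm38.p6 (21887 protein-coding genes, without strand, so a side of a gene is its lower or higher coordinate) and start sites from its promoter table, which lacks chromosome 18 and reaches 17492 of these genes. The 15 gene lists hold 309 different genes, of which 307 matched. Genotypes were compared by the 2-sided exact permutation test over 2 libraries against 2. No reads were available, so no precision from depth can be given. Named genes were, for the main lists, up to 5 per class with the most regions, then the 10 genes with most regions of each class, the sites with most targets of one class, and Foxp3, Il2ra, Ctla4, Il2, Ifng, Nfatc1, Rcan1 and Ikzf1. A few genes that this rule names are not reported here. The members and lists were chosen with earlier results of these data known.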

Additional observations from a re-analysis of the deposited data

Results flagged for a closer look

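Within both library numbers NFAT1 had fewer peaks in IkE5 than in WT, whereas p300 and Foxp3 had slightly more, by amounts at which their genotypes overlapped. The log2 ratio of IkE5 over WT was -0.673 and -0.996 for NFAT1 (libraries 1 and 2) and 0.03 and 0.03 for p300, so NFAT1 minus p300 was -0.86. For Foxp3 the ratios were 0.07 and 0.06, and NFAT1 minus Foxp3 was -0.90. For H3K27ac the ratios were -0.14 and 0.07, of both signs, and NFAT1 minus H3K27ac was -0.80. Permuting the 2 targets' ratios gave an exact 2-sided p of 0.333 each, the smallest that 2 values against 2 can give. For p300 and Foxp3 the flag itself required ratios of opposite sign, which fixes this p in advance.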

How the results depend on the processing

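With 2 libraries per genotype no test could pass 0.05, so the alternatives show values and directions only. Of 90 alternatives of 13 results, 52 kept the direction within 1.5 times the reported value, 21 kept it but moved by over 1.5 times, all of them differences in the shares of other targets, 10 counts moved by over 1.5 times and 7 differences changed sign. The replicate block, taken within library numbers, gave IkE5 at 56.4% of the WT peaks (exact sign-flip p = 0.5, the smallest possible). It gave 4449 and 4474 WT only and 1532 and 1058 IkE5 only regions within numbers 1 and 2. Deviations of same-numbered libraries correlated over regions at 0.02 for NFAT1, -0.05 for p300, 0.27 for Foxp3 and 0.02 for H3K27ac. In each of these 4 targets and in both genotypes library 2 had fewer peaks than library 1 (66.5% to 87.5%). Ikaros, mapped in WT alone, had more peaks in library 2 (26641 against 22297). The labels state no pairing. A class needing 1 library of one genotype and neither of the other held 5396 WT only and 1715 IkE5 only regions. Both block and looser classes need fewer libraries. Leaving out each NFAT1 library in turn gave 46.8% to 66.9% of the WT peaks, 2344 to 4206 WT only and 550 to 1258 IkE5 only regions. Leaving out each library of another target gave differences in percentage points of -33.9 to -14.1 (p300), -21.1 to 3.95 (Foxp3) and -6.78 to -2.23 (H3K27ac) at WT only regions, 43.7 to 53.2, -1.33 to 54.5 and 5.95 to 37.0 at IkE5 only regions, and -3.76 to 2.06 (p300), -18.9 to 23.3 (Foxp3) and -1.60 to 8.46 (H3K27ac) at all-4 regions. Divided by the relative number of peaks, Foxp3 at all-4 regions was -0.80 in place of 2.22 points. Covered bases gave the same ratio as peaks because all peaks are 500 bp wide. NFAT1 was kept at 46.6% ± 10.9 (SD, n = 2 IkE5 libraries) of WT regions with both Ikaros libraries. In IkE5 libraries 1 and 2 the shares kept there were 54.3% and 38.9%, close to the 55.8% and 40.2% of all 5301 WT regions. With a peak in neither Ikaros library they were 39.4% and 27.3%. Of 60 gene list alternatives 14 moved, among them effector cytokines with an IkE5 only region, from 3 to 1 (window of 2 kb) or 5 (nearest gene within 50 kb). Depth is unknown, so a missing peak is not shown to be a missing site.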

Other observations

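Of 18 trafficking receptor genes, which are chemokine receptors with Gpr15 and the sphingosine-1-phosphate receptor S1pr1, 12 had an NFAT1 region, and a peak lay at 6 and 7 of them in WT libraries 1 and 2 and at 10 and 11 in IkE5 libraries 1 and 2. WT only regions lay at 2 (16.7% of the genes with a region, background 31.1%) and IkE5 only regions at 4 (33.3%, background 4.61%). Over the 23 regions of the list 8.70% were WT only and 13.0% IkE5 only, beside 20.0% and 3.16% near any gene. The 4 genes rest on 3 regions and include S1pr1, whose site is counted with the naive and quiescence genes too, and Cxcr3, and the latter is named here after its values were seen. The site of Cxcr3, the receptor of T helper 1 cells, lay 1.07 kb below the gene (chrX:101729947-101730468) with p300 in both IkE5 libraries alone. With a window of 2 kb the list had 2 genes with an IkE5 only region and 1 with a WT only region, and with the nearest gene within 50 kb it had 6 with a WT only region.

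The TNF receptor family had peaks at 11, 12, 9 and 8 of 12 genes, with WT only regions at 5 (41.7%, background 31.1%) and IkE5 only regions at none (background 4.61%). But over their 35 regions 14.3% were WT only, beside 20.0% near any gene. Housekeeping genes, which all cells use, had peaks at 8, 7, 5 and 2 of 12 genes, with WT only regions at 3 (25.0%, background 31.1%) and IkE5 only at none (background 4.61%). Of their 16 regions 18.8% were WT only. The myeloid markers with a peak were Itgam and Itgax, integrin genes named here after their values were seen. They share 1 IkE5 only site, 1.06 kb above Itgam (chr7:128119554-128120135), with H3K27ac in both IkE5 and neither WT library.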
